A study of Arabidopsis thaliana with 24 samples.

Results

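The fc1 mutant and the wild type (wt) of Arabidopsis thaliana were compared after 120 min of light, using 4 of the 24 arrays of the study, 2 for each genotype. The members were chosen by their labels alone: every array of fc1 and of wt at that time, with all 22217 probe sets of the table. The seedlings were of the Col-0 ecotype. After stratification at 4 °C for 4 days and 2 h of light at 120 µmol m-2 s-1 and 22 °C to start germination, they grew in darkness for 4 days at 22 °C and were then unwrapped under the same light for 0, 30 or 120 min. The mutants were fc1 (allele fc1-1), fc2 (allele fc2-1) and flu, each held at the same 3 times as wt, so that 24 arrays formed 12 groups of 2. Whole seedlings were used, so organs and cell types are mixed in every value, and fewer cells of a type cannot be told apart from less RNA per cell. Each mutant is represented by a single allele. The labels call the 2 arrays of a group biological replicates without saying which plates or seed lots they came from. The p-values thus measure only the spread between arrays of the same group. That spread is pooled over all 12 groups and is not that of the 4 compared arrays alone. Having 2 arrays a group limits their precision.

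Ferrochelatase is the enzyme that inserts iron into protoporphyrin IX to make haem, at the point where tetrapyrrole synthesis divides into a haem branch and a chlorophyll branch. Arabidopsis has 2 plastid ferrochelatases. FC2 is known mainly from green tissue, whereas FC1 is found in roots and other organs as well and is known to respond to stress. The flu mutant lacks a brake on the pathway and is known to build up protochlorophyllide in darkness, which makes singlet oxygen once light is given. No probe set of the table named FC1, FC2 or FLU alone, so the genotypes were not checked here against the targeted genes.

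Levels are the authors' deposited log2 signals and are given for replicate 1 and then replicate 2. Differences are fc1 minus wt on the log2 scale, ± the standard error (SE) of limma, n = 2 arrays a group. A probe set was called where the Benjamini-Hochberg adjusted p over all 22217 probe sets was under 0.05. The 2 wt arrays at 120 min agreed less than those of any other group: across probe sets they correlated at 0.9907, and 9.68% of probe sets differed by over 0.5, against 2.50% for the 2 fc1 arrays. The SE, pooled over all groups, does not reflect this wider spread by itself. Replicate 2 of wt stood apart, with correlations of 0.9857 and 0.9800 to the fc1 arrays, where wt replicate 1 had 0.9929 and 0.9921. Seed-maturation transcripts differed within both groups. Their mean over M10, M17, PAP85 and OLEO3 was 5.50 and 7.88 in wt and 7.64 and 5.29 in fc1. In seedlings with both organs expected, the root-hair expansins EXPA7 and EXPA18 lay between 4.70 and 5.55 on the 4 arrays, and the antenna gene LHCB4.1 between 12.82 and 13.03.

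After 120 min of light, 2055 probe sets (9.25%) were called, 1268 higher in fc1 (5.71%) and 787 lower (3.54%). Of these, 1060 name exactly 1 gene. Most differences were small: the median size among called probe sets was 0.58, and 227 reached 2-fold, 177 of them higher and 50 lower. At least 4-fold was reached by 19. The larger changes were thus mostly rises. The arrays of the groups did not overlap for 2054 of the 2055, where 24.7% of all probe sets lay higher and 24.4% lower without overlap. The count of calls depends on single arrays: it was 469 without wt replicate 2, 4373 without wt replicate 1, 544 without fc1 replicate 2 and 1354 without fc1 replicate 1. In the fits with all arrays and with each of the 4 left out, 347 probe sets (1.56%) were called every time, 214 higher (0.963%) and 133 lower (0.599%). Under both other scalings of the arrays as well, 340 (1.53%) were called, 207 higher (0.932%) and 133 lower (0.599%). Without the seed-richer array of each group, wt replicate 2 and fc1 replicate 1, 365 were called, and with the seed mean as a covariate 1979. Over every probe set the median difference was -0.01. Scaled to 2 reference genes it was -0.18, with 565 called higher and 1825 lower. Under quantile normalization it was 993 higher and 1086 lower. So which direction had more calls depends on the scaling. All of the 30 genes described next kept their direction and their call under both. They were chosen as the largest called differences on these same arrays, so keeping both was favoured by the choice.

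**Figure D1:**
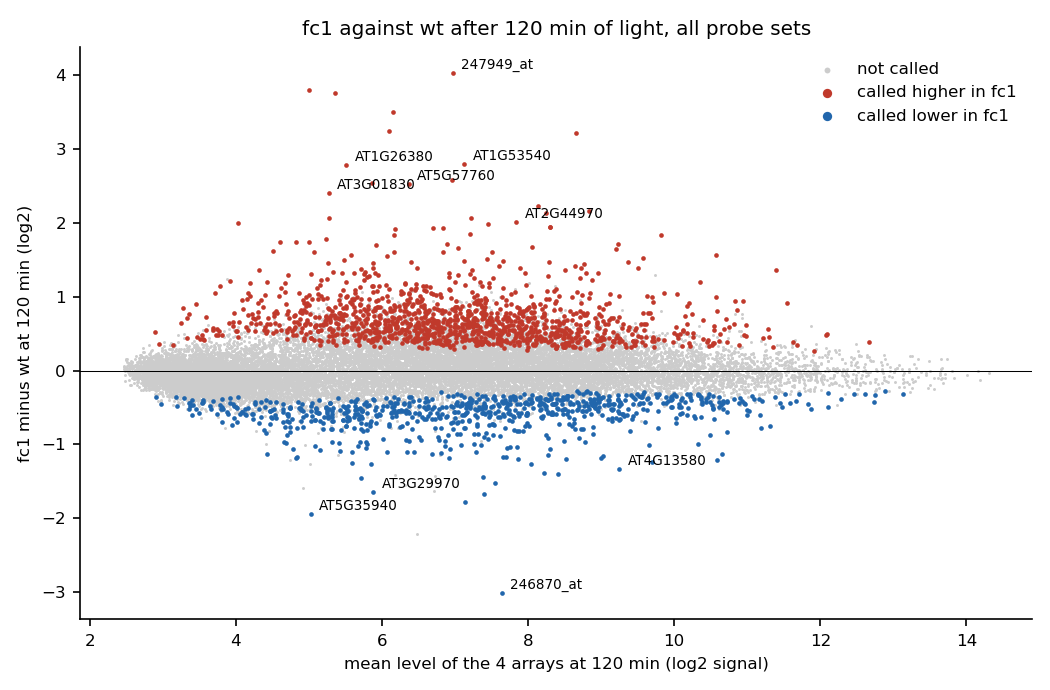
The horizontal axis is the mean log2 signal of the 4 arrays at 120 min and the vertical axis the log2 difference fc1 minus wt, with 1 point for each of 22217 probe sets. Called probe sets are red (1268 higher) or blue (787 lower) and the rest grey. The points farthest from 0 lie mostly above it, and 246870_at stands alone at the bottom with -3.02.

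The 15 largest rises among probe sets with 1 named gene were led by a small heat-shock protein gene. The rises and falls were chosen among called probe sets whose groups do not overlap, so their separation was fixed by the choice. AT1G53540, which encodes a cytosolic small heat-shock protein that holds unfolding proteins in solution, was at 5.70 and 5.76 in wt and at 8.41 and 8.64 in fc1. The difference of 2.79 ± 0.20 had an adjusted p of 8.44e-08 in limma. AT1G26380, an oxidoreductase of the berberine-bridge-enzyme family, read 4.23 and 4.01 in wt and 6.74 and 7.06 in fc1. Its difference was 2.78 ± 0.17 (adjusted p 2.06e-08), with wide gaps between the groups in both genes. AT3G01830, a calmodulin-like calcium sensor, was at 3.93 and 4.22 in wt and 6.67 and 6.28 in fc1, a difference of 2.40 ± 0.25. The calmodulin-like gene CML37 stood at 4.96 and 5.19 in wt and 6.77 and 6.78 in fc1, which gave 1.70 ± 0.19.

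XTH18, whose product cuts and rejoins xyloglucan in the cell wall, was at 7.46 and 7.20 in wt against 9.11 and 9.45 in fc1, higher by 1.95 ± 0.18. AT3G16530, which encodes a legume-type lectin, stood at 7.22 and 7.45 in wt and 9.29 and 9.26 in fc1, higher by 1.94 ± 0.12. AT1G66090, of the TIR class of resistance-type proteins, rose from 5.26 and 5.19 in wt to 7.28 and 7.0 in fc1, by 1.92 ± 0.21. In each of these 3 genes both fc1 arrays lay above both wt arrays, a condition of the choice, and by more than the spread within either group. AT1G19020, for which no role is given here, was the brightest of the 15 with 8.89 and 8.90 in wt and 10.65 and 10.82 in fc1. Its difference was 1.84 ± 0.22. The remaining rises were AT5G57760, AT2G44970, AT5G52760, AT4G28085, AT5G57510, AT5G52670 and AT3G54150, between 1.74 and 2.52. AT5G52760 was at 3.03 on both wt arrays, near the bottom of the scale, and at 4.88 and 5.17 in fc1. Of the 15 rises, 8 had mean levels over the 24 arrays in the dimmest 40% of probe sets (up to 5.31), where a log2 signal compresses differences.

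Further rises were named after their values were seen. AT5G52750 read 3.53 and 3.86 in wt and 5.18 and 5.46 in fc1 (1.62 ± 0.16). AT1G26420, a second gene of the berberine-bridge-enzyme family, was at 3.15 and 3.28 in wt and 4.21 and 4.52 in fc1 (1.15 ± 0.14). AT1G61360 was at 7.22 and 7.21 in wt and 8.97 and 8.81 in fc1 (1.68 ± 0.12). All of them were called with each array left out.

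The 15 falls ranged from -1.94 to -1.12, and the 15 rises from 1.70 to 2.79. The largest fall was AT5G35940, a jacalin-type lectin gene, at 6.10 and 5.90 in wt and 3.79 and 4.33 in fc1, a difference of -1.94 ± 0.16 (adjusted p 5.55e-07). AT3G29970 followed with 6.78 and 6.63 in wt and 4.79 and 5.32 in fc1 (-1.65 ± 0.22). AT4G13580, a member of the dirigent family, whose proteins steer the coupling of lignan and lignin precursors, was at 9.94 and 9.90 in wt and 8.64 and 8.52 in fc1. It differed by -1.34 ± 0.11, with an adjusted p of 3.4e-07. A second dirigent-family gene, AT4G11190, had levels of 8.54 and 8.82 in wt and 7.46 and 7.36 in fc1 (-1.27 ± 0.12). In both dirigent genes the fc1 arrays lay at least 1 unit below the wt arrays.

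AT2G48130, a lipid-transfer-protein-like gene, read 7.02 and 7.49 in wt and 6.09 and 6.17 in fc1, lower by 1.12 ± 0.13 on the log2 scale in fc1. AT1G30750, for which no role is given here, had the smallest SE of the 15, at 9.61 and 9.59 in wt and 8.46 and 8.42 in fc1 (-1.16 ± 0.09). AT5G26270 was at 9.55 and 9.63 in wt and 8.42 and 8.40 in fc1 (-1.18 ± 0.12). Of the 15 falls, 2 were among the dimmest 40% of probe sets. The other falls were AT5G47530, AT1G29090, AT4G02090, AT4G17280, AT5G54040, AT4G26790, AT1G68570 (NPF3.1, a transporter of the nitrate and peptide transporter family) and AT1G66100 (a thionin), between -1.12 and -1.27. AT1G68570 and AT1G66100 lost the call without wt replicate 2, at -0.90 (adjusted p 0.0559) and -0.83 (adjusted p 0.0822). The other 28 of the 30 were called with each array left out.

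Among the other falls, 3 genes were picked after their values were seen, with no tally of their families. The dirigent-family gene AT2G39430 was at 8.34 and 8.22 in wt and 7.24 on both fc1 arrays (-1.04 ± 0.11). AT3G22620, lipid-transfer-protein-like, was at 10.02 and 10.30 in wt and 9.04 and 9.25 in fc1 (-1.01 ± 0.12). AT2G18980, a class III peroxidase gene, was at 9.18 and 9.35 in wt and 8.15 and 8.43 in fc1 (-0.97 ± 0.11).

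**Figure D2:**
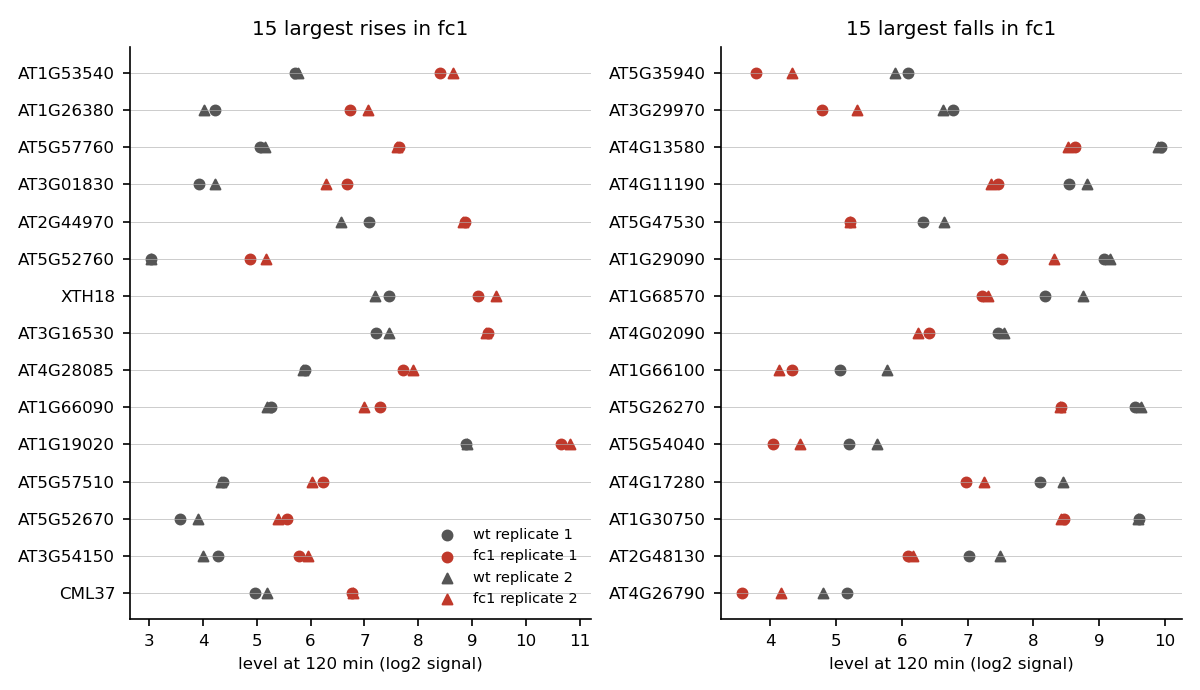
Log2 signal of each array at 120 min for the 15 largest rises (left) and the 15 largest falls (right), with wt in grey, fc1 in red, circles for replicate 1 and triangles for replicate 2. Genes were chosen among those whose groups do not overlap, so the separation is fixed by the choice. The gap is widest for AT1G53540, from 5.76 to 8.41, and AT1G26380, from 4.23 to 6.74.

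The probe sets with no listed gene held larger differences than any named gene, and 2 in each direction are given by their identifiers. Probe set 247949_at was at 4.92 and 4.99 in wt and 8.83 and 9.14 in fc1, higher by 4.03 ± 0.21 (adjusted p 1.33e-09). Probe set 261450_s_at was at 3.15 and 3.05 in wt and 6.74 and 7.05 in fc1 (3.79 ± 0.20). Both were near wt in the dark, differing by 0.15 and -0.14. Probe set 246870_at behaved in the opposite way: it was at 9.13 and 9.16 in wt and at 6.16 and 6.10 in fc1, a difference of -3.02 ± 0.14 (adjusted p 4.24e-10). It was lower in fc1 in the dark too, by -1.78, and at 30 min, by -2.70. In wt its level climbed from 7.92 and 7.87 in the dark to its 120 min level, and in fc1 it was 6.08 and 6.16 in the dark and stayed between 5.97 and 6.17 after that. The gene it measures is not listed, and whether that gene is FC1 itself was not tested. Probe set 250780_at was at 7.95 and 8.11 in wt and 5.75 and 6.74 in fc1 (-1.78 ± 0.28).

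The same contrast before the light and at 30 min used other arrays and placed the 120 min differences in time. In the dark 608 probe sets (2.74%) were called between fc1 and wt, 290 higher (1.31%) and 318 lower (1.43%), and at 30 min 4091 (18.4%), 2151 higher (9.68%) and 1940 lower (8.73%). Higher calls made up 47.7% of those in the dark, and 4.75% of the 3914 called there under the reference scaling. Of the 1268 probe sets higher in fc1 at 120 min, 599 (47.2%) were also called higher at 30 min, which is 27.8% of those called higher then, and 1 was called lower. In the dark 112 of them (8.83%) were called higher, 38.6% of the dark list, and 5 lower. Of the 787 lower at 120 min, 338 (42.9%) were lower at 30 min, 17.4% of the 30 min list, and 75 (9.53%) in the dark, 23.6% of the dark list. The same call at all 3 times was made for 160 probe sets (0.72%), 100 higher and 60 lower. The dark and 30 min counts moved with single arrays as well, to between 7 and 154 in the dark and between 240 and 5417 at 30 min when 1 array was left out, the lowest without wt replicate 1 in both cases. Of the 15 largest rises, 10 were called higher at 30 min and 1 in the dark. Of the 15 falls, 11 were called lower at 30 min and 4 in the dark.

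Genes also called before light formed the smaller group, but a missing call does not show that a difference was absent. In the dark 82.5% of the 1268 probe sets higher at 120 min, and 83.4% of the 787 lower, had the same sign. AT2G44970 was at 5.98 and 5.79 in wt and 8.13 and 8.22 in fc1 in the dark, a difference of 2.29, and differed by 1.71 at 30 min and 2.02 at 120 min. AT5G35940 was lower in fc1 by -2.23 in the dark, -2.06 at 30 min and -1.94 at 120 min. AT3G29970 differed by -1.69, -1.54 and -1.65 at the same times. In these 3 genes the fc1 and wt courses ran apart from the start. AT5G26270, of the falls, and GI, the clock and flowering-time gene GIGANTEA, were also called at all 3 times: AT5G26270 by -0.83, -1.12 and -1.18, and GI by 0.52, 0.36 and 0.40.

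The light response of fc1, from 0 to 120 min, differed from that of wt in 223 probe sets (1%), 155 higher (0.698%) and 68 lower (0.306%). The genes named here were chosen for their size at 120 min, which favours a larger difference then than in the dark. Higher calls were 69.5% of the 223, and 80.9% under the reference scaling. AT1G53540 was at 4.25 and 4.69 in fc1 in the dark, at 5.24 and 5.23 after 30 min and at 8.41 and 8.64 after 120 min, while wt went from 4.69 and 4.57 to 5.70 and 5.76. AT3G16530 began lower in fc1 (-0.56 in the dark, called) and ended higher. AT5G64870, a flotillin-like gene widely used as a singlet-oxygen marker, was at 5.76 on both wt arrays and 7.70 and 7.71 in fc1 at 30 min. Its difference at that time, 1.95, was followed by 1.67 at 120 min. AT5G57760 moved the other way: it dropped in wt from 9.86 and 10.01 in the dark to 5.06 and 5.15 at 120 min, and in fc1 from 10.37 and 10.27 to 7.64 and 7.61, so that the higher fc1 level was reached from above. AT4G11190 was at 9.57 and 9.71 in wt and 9.89 and 9.96 in fc1 in the dark, and its fc1 arrays had dropped to 8.56 and 8.43 by 30 min where wt was at 9.39 and 9.15. AT4G13580 differed by -0.10 in the dark, -0.78 at 30 min and -1.34 at 120 min.

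**Figure D3:**
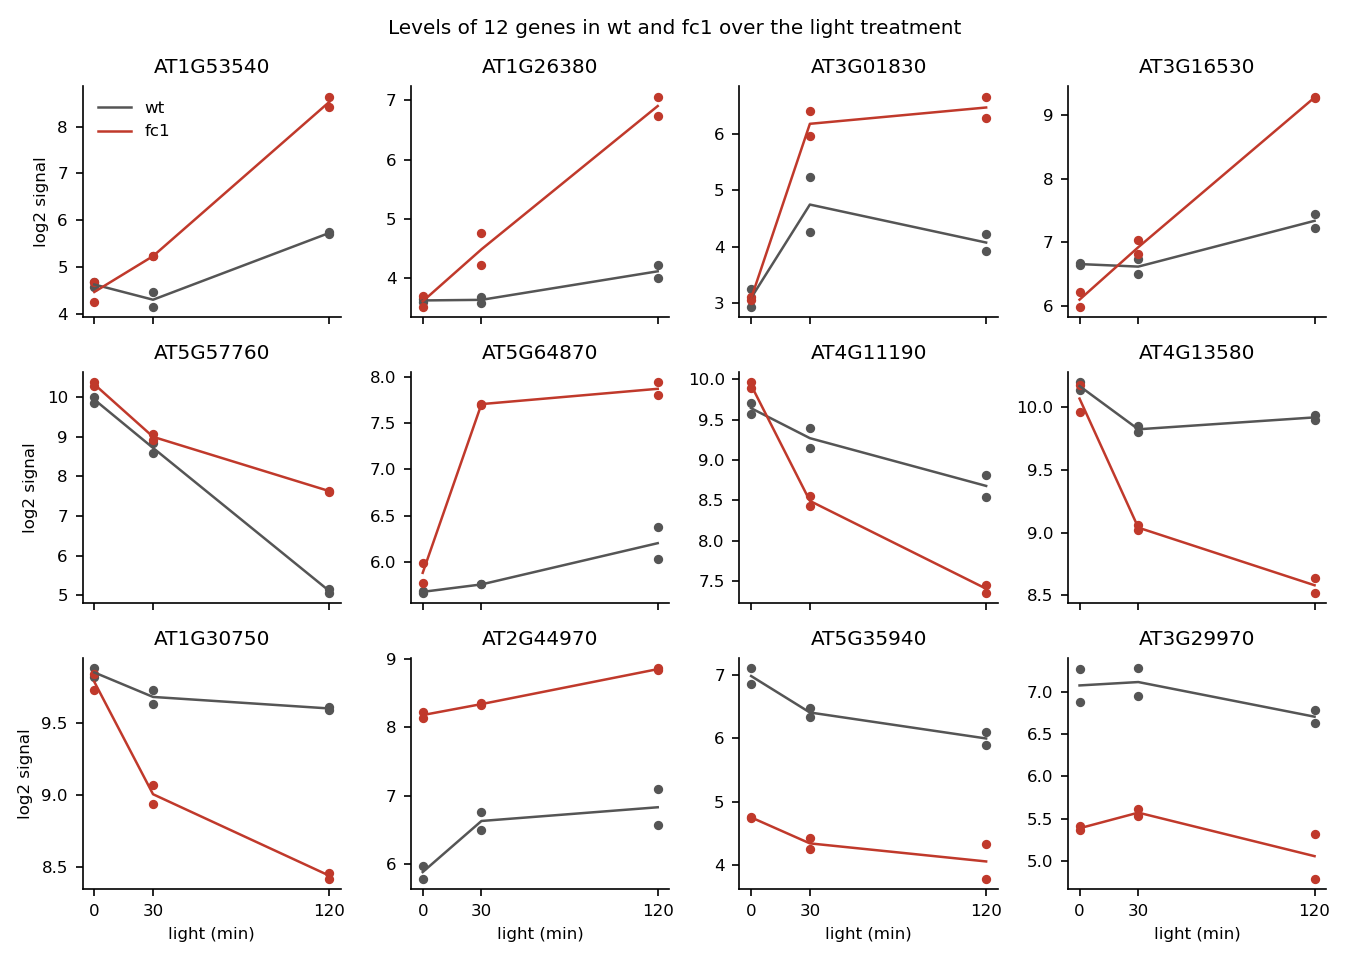
Log2 signal against minutes of light for 12 genes, wt in grey and fc1 in red, with points for the 2 arrays of a group and lines through group means. AT2G44970, AT5G35940 and AT3G29970 are apart from 0 min on, and AT5G57760 goes down in both genotypes and less far in fc1. In the others the lines separate after the dark, in some of them after crossing, as for AT3G16530 and AT4G11190.

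Protein-folding genes rose in part. At 120 min 5.71% of all probe sets were called higher in fc1 and 3.54% lower. Of 8 measured small heat-shock protein genes, 4 were higher in fc1 and 0 lower (median 0.61, against -0.01 over all probe sets). Beside AT1G53540 these were AT1G54050 at 7.81 and 7.85 in wt and 9.17 and 9.21 in fc1 (1.36 ± 0.23), AT5G51440 at 8.94 and 8.68 in wt and 9.98 and 10.41 in fc1 (1.39 ± 0.30), and AT4G21870 (0.62 ± 0.15). The other 4 did not pass: ATHSP22.0 differed by 0.37, AT2G29500 by 0.59, AT5G37670 by 0.30 and AT1G52560 by 0.27. AT5G51440 lost its call without fc1 replicate 2 (adjusted p 0.118) and without wt replicate 2 (0.106). AT4G21870 lost it without either fc1 array and without wt replicate 2 (adjusted p 0.0561, 0.113 and 0.266) and under the reference scaling (0.0595). AT1G53540 and AT1G54050 kept theirs in all of these fits.

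Of 5 other folding genes, 3 were higher, where 5.71% of all probe sets were. AT2G20560, a DnaJ-type cochaperone that hands clients to Hsp70, was at 7.01 and 6.82 in wt and 8.27 and 8.53 in fc1 (1.49 ± 0.25). Hop3, which links Hsp70 and Hsp90, was at 6.52 and 5.55 in wt and 7.33 and 7.94 in fc1 (1.60 ± 0.40), with the wt arrays almost 1 unit apart. AT3G09440, an Hsp70 gene, differed by 0.49 ± 0.15. AT5G48570, an FKBP-type immunophilin, had 7.84 and 7.0 in wt and 8.28 and 8.92 in fc1 and was not called (1.18 ± 0.39, adjusted p 0.0655). The Hsp70 gene Hsp70-2 differed by -0.03. Hop3 lost its call without fc1 replicate 2 (adjusted p 0.206) and without wt replicate 2 (0.317), and AT3G09440 without either fc1 array, without wt replicate 2 and under both scalings (adjusted p 0.0621 to 0.316).

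Genes known to respond to singlet oxygen were the list in which every measured member was called, 4 of 4 higher (median 1.00), where 5.71% of all probe sets were higher. With the reference scaling 2 of the 4 were called. The list was written with earlier results of these data known. Against wt at 120 min, flu also had 4 of 4 higher (median 1.78), where 28.4% of all probe sets were higher. In fc2 1 was higher and 1 lower (median 0.16), where 9.71% and 7.53% of all were. AT5G64870 was at 6.03 and 6.38 in wt and 7.94 and 7.80 in fc1 (1.67 ± 0.14, adjusted p 8.4e-07). AT1G35210 read 3.42 and 3.79 in wt and 4.76 and 4.81 in fc1 (1.18 ± 0.16). STZ, a zinc-finger stress factor, was at 8.10 and 8.52 in wt and 9.32 and 8.92 in fc1 (0.81 ± 0.21), and AT3G28580, an AAA-type ATPase, at 2.60 and 2.66 in wt and 3.11 and 3.19 in fc1 (0.52 ± 0.10). The levels of AT3G28580 lie near the bottom of the scale on all 4 arrays. STZ lost its call without fc1 replicate 1 (adjusted p 0.143), without wt replicate 1 (0.0897) and under the reference scaling (0.0629). AT3G28580 lost it without fc1 replicate 2 (0.0553) and under the reference scaling (0.0806).

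Of 5 calcium and touch genes, 3 were higher, where 5.71% of all probe sets were: AT3G01830, CML37 and CML41. CML41 was at 4.38 and 4.58 in wt and 4.81 and 5.73 in fc1 (0.79 ± 0.24). CML38 (0.41) and AT1G76640 (0.01) were not called. Among 9 calmodulin and EF-hand genes found by name, CML42, at 0.44 ± 0.11, was the third to be called beside CML37 and CML41. The called were 33.3% of that list, where 9.25% of all probe sets were called. CML41 rested on fc1 replicate 2, without which it differed by 0.33 (adjusted p 0.523), and it was not called without either wt array (0.112 and 0.175) or under the reference scaling (0.0911). CML42 was not called without either fc1 array (0.078 and 0.0964), without wt replicate 1 (0.0949) or under either scaling (0.207 and 0.0806).

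Of 3 salicylate and defence genes 2 were higher, where 5.71% of all probe sets were. WRKY53, a transcription factor of leaf senescence and defence, was at 3.76 and 3.46 in wt and 4.39 and 4.75 in fc1 (0.96 ± 0.19). The glutaredoxin gene GRX480 was at 6.12 and 6.29 in wt and 7.09 and 6.93 in fc1 (0.81 ± 0.19). SAG101, which works with EDS1 in immunity, was not called (0.24). WRKY53 lost its call without fc1 replicate 2 (adjusted p 0.0816) and without wt replicate 2 (0.0771), and GRX480 without either fc1 array (0.075 and 0.0581) and without wt replicate 2 (0.056). WRKY53 was the only one of 7 WRKY factors called, and 0 of 7 bHLH factors were, where 9.25% of all probe sets were. The highest bHLH factor, bHLH121, differed by 0.58 (adjusted p 0.117 in limma). No jasmonate gene of the list was measured by a probe set of its own.

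Among photosynthesis genes, 0 of 9 photosystem and Calvin cycle genes were called in limma, where 9.25% of all probe sets were, so the count is near the background. They had differences from -0.25 for the photosystem I subunit PSAE-1 to 0.36 for the thylakoid anchor TROL and a median of 0.11, which was -0.06 under the reference scaling. CaS, a thylakoid calcium-sensing protein gene, was lower in fc1 in the dark, at 10.23 and 10.25 in wt and 9.5 and 9.53 in fc1 (-0.72, adjusted p 0.0085). At 120 min it was at 11.22 and 10.92 in wt and 11.03 and 11.38 in fc1, and its light response differed by 0.86 (adjusted p 0.0176). Of 3 antenna genes, LHCB4.3 was lower, at 9.75 and 9.74 in wt and 9.24 and 9.38 in fc1 (-0.43 ± 0.11), and LHCB4.2 (-0.18) and LHCB4.1 (-0.08) were not called. The call of LHCB4.3 was lost without either fc1 array (adjusted p 0.112 and 0.0618) and without wt replicate 2 (0.131). The Calvin cycle kinase gene PRK stood at 12.18 and 11.78 in wt and 12.07 and 12.39 in fc1, so that its groups overlapped.

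Of 9 tetrapyrrole synthesis genes 1 was called (11.1%), near the 9.25% called over all probe sets. This was PORB, the protochlorophyllide oxidoreductase that needs light to act, at 10.61 and 10.88 in wt and 11.11 and 11.32 in fc1. It was higher in fc1 by 0.47 ± 0.13 (adjusted p 0.0349 in limma). Its call was lost without fc1 replicate 2, without either wt array and under the reference scaling (adjusted p 0.0541 to 0.278). The other 8 were not called: HEMA2, of the first committed step, differed by 0.42, the magnesium chelatase subunit gene CHLI2 by 0.39, HEME2 by 0.33, AT1G74470 by 0.19, HEME1 by 0.17, GSA1 by 0.14, the methyltransferase gene CHLM by 0.06 and HEMB1 by 0.03. All 9 lay above 0, with a median of 0.19 that was 0.02 under the reference scaling.

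Of 5 flavonoid genes, UGT78D2, which adds glucose to flavonols and anthocyanins, was higher (9.91 and 9.82 in wt, 10.45 and 10.53 in fc1, 0.62 ± 0.14). That 1 call was 20% of the list, where 9.25% of all probe sets were called. The list's median was -0.22. UGT78D2 lost its call without fc1 replicate 2 (adjusted p 0.0862), without wt replicate 2 (0.094) and under the reference scaling (0.0538). Of 4 light-signalling and clock genes 2 were higher, where 5.71% of all probe sets were. The cytokinin response regulator RR16 was at 5.36 and 5.52 in wt and 6.38 and 5.92 in fc1 (0.71 ± 0.17). GI was at 9.30 and 9.16 in wt and 9.67 and 9.59 in fc1 (0.40 ± 0.11). HYH (0.39) and FHL (0.18) were not called. RR16 was not called without fc1 replicate 1, without wt replicate 2 or under the reference scaling (adjusted p 0.0604 to 0.149). GI was not called without either fc1 array, without wt replicate 2 or under the reference scaling (0.108 to 0.29).

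Of 19 expansins, proteins that let walls slide and extend, 6 were lower and 0 higher (31.6% of the list, where 3.54% of all probe sets were lower and 9.25% called), and 13 did not pass. The list's median was -0.41, against -0.01 over all probe sets. EXPB3 was at 7.33 and 7.41 in wt and 6.17 and 6.52 in fc1 (-1.03 ± 0.16), EXPB1 at 7.20 and 7.24 in wt and 6.11 and 6.54 in fc1 (-0.90 ± 0.13), and EXPA8 at 9.92 and 9.57 in wt and 8.96 and 9.22 in fc1 (-0.66 ± 0.12). These 3 were called with each array left out. EXPA20 (-0.69), EXPA15 (-0.68) and EXLA1 (-0.46) were called as well, and each lost its call without wt replicate 2 (adjusted p 0.387, 0.181 and 0.0843) and without 1 or both fc1 arrays. The number called was 8 without wt replicate 1, 3 without wt replicate 2, 4 without either fc1 array, 10 under the reference scaling and 8 under quantile normalization, with 0 higher each time. EXPB3 was also lower in the dark (-0.66) and at 30 min (-0.80). The list as a whole moved both ways at 30 min, with 3 called higher and 4 lower (9.68% and 8.73% of all probe sets). In the dark 0 were higher and 1 lower (1.31% and 1.43% of all). Against wt at 120 min, fc2 had 1 higher and 4 lower (9.71% and 7.53% of all), and flu 6 higher and 7 lower (28.4% and 18.2%).

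Of 15 xyloglucan and pectin enzymes 20% were called, where 9.25% of all probe sets were. XTH18 was higher, and XTH33 (-0.76 ± 0.15) and PMEPCRF (-0.65 ± 0.13) were lower. XTH33 lost its call without fc1 replicate 2 (adjusted p 0.0744) and wt replicate 2 (0.0538), and PMEPCRF without fc1 replicate 2 (0.0654). Of 7 auxin and elongation genes 28.6% were called. WAG2, a kinase gene that acts on auxin transporters, was at 5.56 and 4.92 in wt and 6.38 and 6.74 in fc1 (1.32 ± 0.18), and EXPA8 was the other one called. The auxin-response genes IAA29 (-0.14), GH3.3 (0.28), HAT2 (-0.14) and WES1 (-0.21) were not called.

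Of 4 cold and drought genes 1 was lower, where 3.54% of all probe sets were. This was COR15B, a cold-induced chloroplast protein gene, at 6.02 and 6.93 in wt and 5.70 and 5.40 in fc1 (-0.93 ± 0.23). Its relative COR15A was at 7.32 and 8.19 in wt and 7.22 and 6.56 in fc1 without a call (adjusted p 0.105 in limma). In both, wt replicate 2 was the highest array, and COR15B was not called without it (-0.47, adjusted p 0.383) or without fc1 replicate 2 (0.184). The 9 autophagy genes were all of the ATG8 family, whose proteins coat autophagosomes, with a median of -0.23. The called were 22.2% of this list, where 9.25% of all probe sets were called and 3.54% were lower. They were ATG8B (8.97 and 9.04 in wt, 8.50 and 8.54 in fc1, -0.48 ± 0.12) and APG8A (-0.31 ± 0.10), both lower. Neither of these was called without either fc1 array or without wt replicate 2 (adjusted p 0.0769 to 0.425).

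Larger families were mixed. Of 45 UDP-glycosyltransferases, 4 were higher and 4 lower (17.8%), but 0 higher and 7 lower under the reference scaling. UGT76E2 was higher at all 3 times (0.45, 0.51 and 0.51), and UGT72E1, which glucosylates lignin precursors, was lower, at 6.85 and 6.96 in wt and 6.20 and 6.29 in fc1 (-0.66 ± 0.09). The called share of 9 peroxidases was 33.3%. Of them, AT5G66390 (9.15 and 9.14 in wt, 8.27 and 8.44 in fc1, -0.79 ± 0.10) and AT2G41480 (-0.66 ± 0.13) were lower and Prx37 (0.41 ± 0.11) higher. AT2G41480 lost its call without fc1 replicate 2 (adjusted p 0.0552), and Prx37 without each of the 4 arrays and under both scalings (0.0525 to 0.212). The reference scaling gave 0 higher and 3 lower peroxidases. Of 24 cytochrome P450 genes 1 was called, CYP71B16 (0.36), and it was not called without either fc1 array, without wt replicate 2 or under the reference scaling (0.0758 to 0.311), where 2 other members were lower instead. By limma 0 of 13 glutathione transferases, 0 of 2 iron genes, 0 of 4 genes for haem proteins and oxidative stress, 0 of 6 seed, 0 of 2 root and 0 of 2 reference genes were called. The seed genes PAP85 (4.91 and 8.70 in wt, 7.98 and 4.39 in fc1) and M17 (2.76 and 7.59 in wt, 7.99 and 2.92 in fc1) differed far more between the 2 arrays of a group than between the genotypes.

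**Figure D4:**
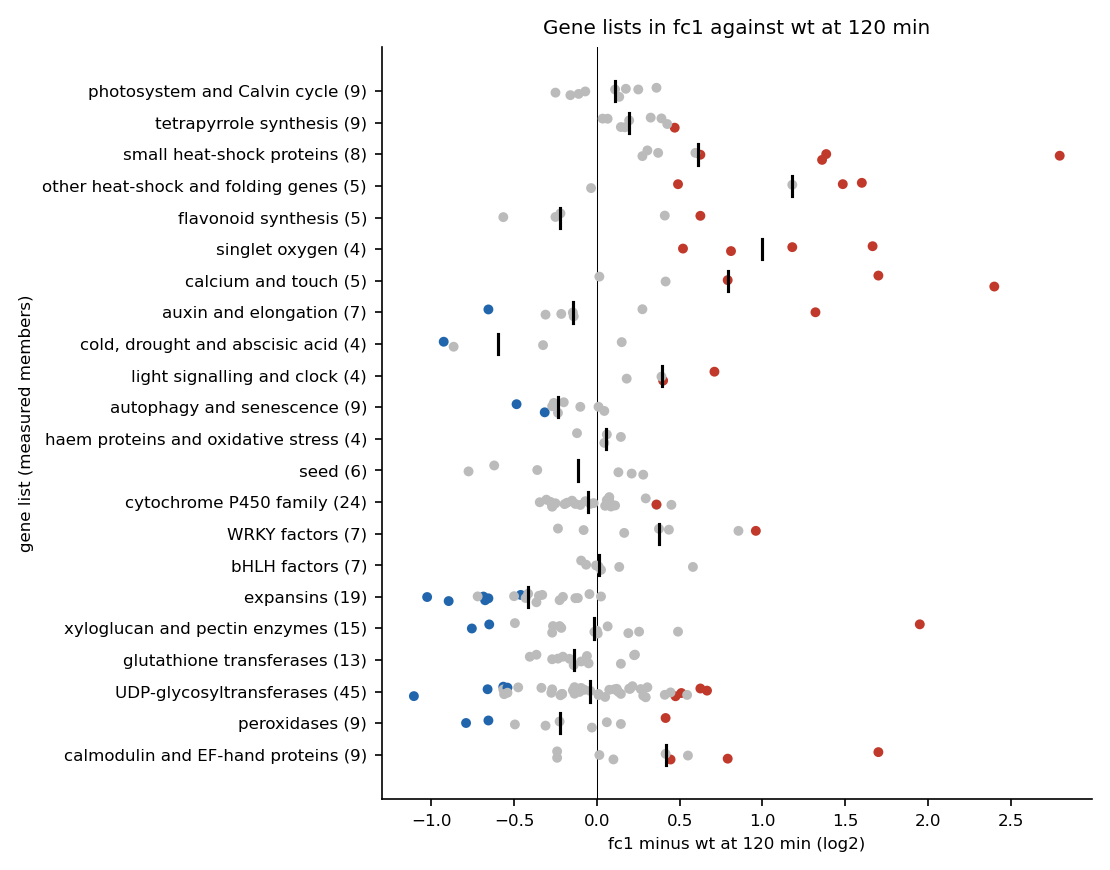
Log2 difference fc1 minus wt at 120 min for every measured member of the lists with 4 or more measured genes, the number of which stands in brackets, with points red where called higher, blue where called lower and grey where not called. Black bars are list medians: 1.18 for other folding genes, 1.00 for singlet oxygen, 0.61 for small heat-shock proteins and -0.41 for expansins.

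The levels in the other mutants at 120 min set the fc1 values in context. The comparisons of fc1, fc2 and flu with wt share the 2 wt arrays, and those of fc1 with fc2 and with flu share the 2 fc1 arrays, so their values are given side by side. Against fc2, 6074 probe sets (27.3%) were called, 13.4% of all higher in fc1 and 13.9% lower. Against flu 11247 (50.6%) were called, 21.7% higher in fc1 and 29% lower. From wt, fc2 differed in 3830 probe sets (17.2%), 9.71% higher and 7.53% lower, and flu in 10354 (46.6%), 28.4% higher and 18.2% lower. The 2055 called between fc1 and wt were the fewest for a mutant at this time.

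AT1G26380 was not called against wt in fc2 or flu: it was at 3.95 and 4.04 in fc2 and 4.21 and 4.45 in flu, and fc1 exceeded fc2 by 2.90 and flu by 2.57, both called. AT1G53540 was above wt in all 3 mutants, at 10.56 and 10.54 in fc2 and 9.39 and 9.46 in flu, and fc1 was lower than fc2 by -2.02 and than flu by -0.90, both called. AT3G01830 stood at 4.48 and 4.37 in fc2 and 6.93 and 6.95 in flu, so that fc1 exceeded fc2 by 2.05 and was not called against flu (-0.46). AT5G64870 was at 5.60 and 5.89 in fc2 and 8.31 and 8.50 in flu, with fc1 above fc2 by 2.12 and below flu by -0.53, both called. AT3G16530 was at 7.34 and 7.48 in fc2 and 8.47 and 8.15 in flu, and fc1 was the highest of the 4 genotypes. The fc1 level of AT5G57760 lay between fc2, at 8.84 and 8.82, and flu, at 6.0 and 6.07.

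For small heat-shock proteins fc1 stood well below fc2. Of the 8, 6 were lower and 1 higher in fc1 than in fc2 (median -2.58), where 13.9% and 13.4% of all probe sets were. Against flu, 6 were lower and 1 higher in fc1 (median -1.17), where 29% and 21.7% of all were. ATHSP22.0, at 5.50 and 5.83 in wt and 5.99 and 6.08 in fc1, exceeded wt by 4.53 in fc2. For photosynthesis the order was the other way: fc1 was above fc2 in 7 of 9 photosystem and Calvin cycle genes and above flu in all 9, and the tetrapyrrole list was higher in fc1 than in flu for 8 of 9. PORB was lower in fc1 than in fc2 (-1.11) and higher than in flu (1.80). All 9 ATG8 genes were lower in fc1 than in fc2, and 8 of 9 lower than in flu, where 13.9% and 29% of all probe sets were.

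The falls of fc1 were not shared by the other mutants for the dirigent genes. AT4G13580 was at 10.44 and 10.54 in fc2 and 10.42 and 10.70 in flu, above wt in both (0.57 and 0.64, called), and fc1 was lower than fc2 by -1.91 and than flu by -1.98. AT4G11190 exceeded wt by 0.41 in fc2 and 0.86 in flu. AT1G30750, at 9.95 and 10.01 in fc2 and 10.37 and 10.48 in flu, was also above wt in both. AT5G35940 was at 6.42 and 6.32 in fc2 and 5.87 and 5.91 in flu, without a call against wt in either. Among the 15 falls, AT4G26790 was lower than wt in fc2 (-1.08) and in flu (-1.62) too, and AT1G68570 was lowest in flu (-2.85).

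**Figure D5:**
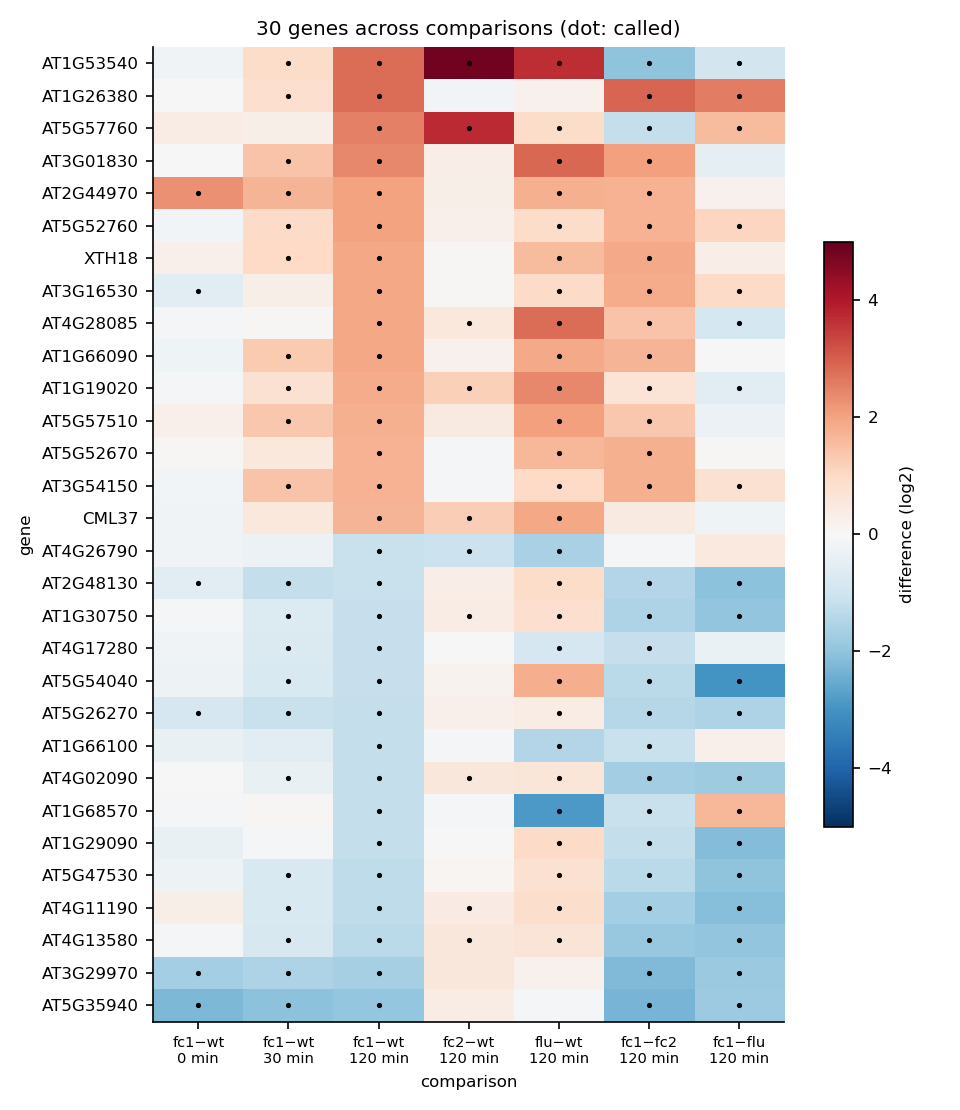
Log2 differences of the 15 largest rises (top) and 15 largest falls (bottom) in 7 comparisons, red for higher and blue for lower in the first-named genotype, with a dot where called. AT1G53540 and AT5G57760 are deepest in fc2 (4.82 and 3.73), AT1G26380 is pale and without a dot in fc2 and flu, and AT2G44970, AT5G35940 and AT3G29970 are coloured at all 3 times.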

How the data were processed

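Affymetrix arrays of whole seedlings were hybridised with biotin-labelled cRNA made from 450 ng of total RNA, per the labels' protocols. RMA, which corrects background, normalizes arrays and summarises probes, was run by the authors, per the submitters' processing notes, and their deposited table holds log2 signals. The sources used here do not give its software or version. No column of values was left unused. The platform table gave 1 gene to 13171 of 22217 probe sets, several to 482 and none to 8564. Names come from it and from the TAIR10.1 gene table.

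All 24 arrays entered 1 model with a mean per group, 12 in all, in limma 3.58.1 and R 4.3.3 (lmFit and eBayes, residual df 12, prior df 5.33). Tests were two-sided, and p-values were adjusted by Benjamini-Hochberg over all probe sets of a comparison. Tables and figures used Python 3.11.15, pandas 2.3.3 and matplotlib 3.10.9. The fit was tested on simulated data. Arrays carry no counts, so their number limits the precision.

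The named genes, from probe sets with 1 gene, were the 15 largest called rises and falls with arrays that did not overlap, up to 3 each way of the other comparisons, and list members (all of lists with under 10 measured, otherwise the 6 smallest p). The genes and lists were chosen with earlier results of these data known.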

Additional observations from a re-analysis of the deposited data

Results flagged for a closer look

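The difference between fc1 and wt was not the same before and after light for 223 probe sets, by limma's test of the difference between the light responses of fc1 and wt (0 to 120 min). Of the 30 named rises and falls, 20 were among them, but they were picked as the largest differences on the same 120 min arrays, so this count supports nothing. The fc1 minus wt difference was larger at 120 min than in the dark by 2.96 for AT1G53540, 2.80 for AT1G26380, 2.50 for AT3G16530, 2.41 for AT3G01830, 2.14 for AT5G57760, 2.13 for AT1G66090 and 2.12 for AT5G52760. It was larger by 2.01 for AT4G28085, 1.93 for AT1G19020, 1.88 for CML37, 1.86 for AT3G54150, 1.71 for XTH18, 1.68 for AT5G52670 and 1.52 for AT5G57510. For the falls, the change of the difference was -1.56 for AT4G11190, -1.24 for AT4G13580, -1.15 for AT4G02090, -1.10 for AT1G30750, -1.03 for AT5G47530 and -0.99 for AT4G17280. All of these use the same 120 min arrays as the comparison with wt. With 2 arrays a group, single outlying arrays were not tested for.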

How the results depend on the processing

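The count called between fc1 and wt at 120 min, 2055, was 850 with array quality weights, 1042 with array spread as a covariate, 365 without the seed-richer arrays, 164 with only the 4 arrays fitted, and 227 at a 2-fold threshold. It ranged from 469 to 4373 with 1 array left out. At 30 min it was 2324 with the seed covariate, 1584 without the seed-richer arrays and 100 with only the arrays compared, and 240 to 5417 with 1 array left out. In the dark it was 3914 under the reference scaling, 3890 with weights, 2243 with only the arrays compared, 1074 without dim probe sets, 999 with trend and robust variances and 316 with the spread covariate, and 7 to 154 with 1 array left out. The light-response count was 141 with only the arrays compared and 351 with the spread covariate, and 110 to 241 with 1 array left out. Against fc2 it was 3355 without the seed-richer arrays and 3835 to 5027 with 1 array left out, and against flu 9432 to 10282. In these cases the cause was not tested, except that fewer arrays enter the smaller fits. The share of calls that were higher was 61.7% at 120 min, 23.6% under the reference scaling and 47.8% under quantile normalization. In the dark it was 47.7% and 4.75% under the reference scaling, and for the light response 69.5% and 80.9%. The remaining alternatives left these counts within 1.5 times.

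Replicate numbers are not said to mark a shared culture, batch or day, and the deviations of same-numbered arrays of wt and fc1 at 120 min correlated at -0.385. With the replicate number as a block over all arrays, 1826 were called at 120 min, 3817 at 30 min, 461 in the dark, 204 for the light response, 5893 against fc2 and 11144 against flu. On the 4 arrays alone the replicate block gave 0 calls by limma, with 2063 at an unadjusted p under 0.05, and the crossed pairing 89. The crossed pairing, the block on 4 arrays, the spread covariate and the requirement of a call in each leave-out fit were chosen after seeing the data.

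The 30 named rises and falls kept their direction in every alternative that tested them (20 remained without dim probe sets). Of 82 named and called probe sets 0 reversed in any. The 30 were picked as the largest differences on the same arrays and the 82 were all called on them, which favours keeping the direction. Calls were lost, however: of the 82, 46 with only the 4 arrays fitted, 38 without the seed-richer arrays, 50 with the crossed pairing, 82 with the block on 4 arrays, 21 with array weights, 16 under the reference scaling and 6 to 27 with 1 array left out. Of the 30, 24 were called with only the 4 arrays fitted, 25 without the seed-richer arrays, 22 with the crossed pairing and 0 with the block on 4 arrays. Calls lost with 1 array are given beside the genes.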
